A study of Mus musculus with 1298 samples.

Results

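The 50 genes described here drive or mark the cell division cycle. Of these, 22 act in DNA replication or its licensing and are called S phase members, 22 act in G2 and mitosis and are called G2/M members, and 6 regulate the passage through G1. They were found by symbol, and each of the 50 was a row of the single-cell tables of both platforms and of the bulk table. They are 50 of the 15147 genes that both single-cell tables hold, and in GENCODE vM21 they lie on 16 chromosomes of the GRCm38 mouse genome.

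In G1, D-type cyclins with their kinases phosphorylate the retinoblastoma proteins, which releases E2F factors to transcribe the genes of S phase, among them cyclin E, the MCM helicase and the enzymes of nucleotide synthesis. The genes of G2 and mitosis are transcribed later by complexes of B-Myb and FoxM1 that read a short promoter element, the cell cycle genes homology region (CHR), while in resting cells the DREAM complex keeps both sets low. Muscle progenitors leave the cycle when they differentiate, and p21 (*Cdkn1a*) and the retinoblastoma protein take part in that exit, while postmitotic neurons keep most cycle genes silent.

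Embryos carried *Pax7CreER:R26R-stop-EYFP*, so that cells that expressed *Pax7* when tamoxifen was given (75 µg per g at E9.5) and their progeny carried YFP, whether or not they still expressed *Pax7*. Bodies without heads, limbs and viscera were taken on 3 days (E12.5, E14.5, E16.5), and YFP+ cells sorted from pooled embryos were measured on 10× (3 libraries, 1 per day) and with Smart-seq2 (15 plates). All groups of cells shared the genotype and the tamoxifen, and no unlabelled cells were measured. The bulk libraries used here are 2 replicates of Pdgfra-/Cd36+ cells sorted at E16.5.

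After the study's filter on cells, 3852 of the 3916 deposited cells remained. Over the 3 days a 10× cell held a median of 2185, 5930 and 1607.5 unique molecular identifiers (UMIs) and a Smart-seq2 cell a median of 393416, 769833 and 829590 expected counts. The 10× libraries shared 3 cell barcodes. All 50 members were kept out of the clustering, so that they did not help to form the classes in which they are described. The classes are EM-like and LM-like for early and late muscle, LP-like for late progenitors, DF-like for dermal fibroblasts, BA-like for brown adipocytes, PE-like for pericytes, N-like for neurons and NP-like for neural progenitors, and they hold 3436 of the 3852 cells. The remaining cells formed cluster 1, mostly at E12.5. Among the study's classes it scored highest for early progenitor markers (mean z-score 0.9), but its score for cartilage markers was higher (2.47). It was led by cartilage genes such as *Col2a1*, *Col9a1* and *Acan*, and it is called cluster 1 here. A pool is 1 platform on 1 day, and the counts of a class in a pool were summed. Cells are not replicates of each other. Pools were the only repeated measure, so p-values measure the spread between pools, which may be technical. Levels (CPM) are the counts of a gene scaled to the same total for each class and pool (counts per 1000000). They were not divided by transcript length, so a gene is compared between classes and not with another gene, and 10× and Smart-seq2 values are not compared with each other.

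The promoters of the members are shown because S phase and G2/M members are described as separate sets in the comparisons that follow. RefSeq (GRCm38.p6) windows from 250 bases before to 50 bases after the transcript start were matched for 42 of the 50 members. The CHR letters TTTGAA or TTCGAA, searched on both strands, were found in 14 of 19 G2/M genes (73.7%), in 4 of 19 S phase genes (21.1%) and in 21.7% of all 27025 genes with a window. The E2F letters TTTGGCGC, TTTCCCGC, TTTGCCGC or TTTCGCGC were found in 8 of 19 S phase genes (42.1%), in 1 of 19 G2/M genes (5.26%) and in 2.6% of all genes. CCAAT, the letters bound by NF-Y, were found in 15 of 19 G2/M genes (78.9%), 13 of 19 S phase genes (68.4%) and 41.1% of all genes. Both CHR and CCAAT letters lay in the windows of 13 of 19 G2/M genes (68.4%), 4 of 19 S phase genes (21.1%) and 8.61% of all genes. The 4 G1 regulators with a window held CCAAT in 3 cases (75.0%) and neither CHR nor E2F letters. These are matches of letters and not sites of binding.

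The promoters of 5 G2/M genes and 3 S phase genes show the pattern, each as the stretch of 160 bases before the transcript start, 5′ to 3′ on the strand of the gene, with all matches in capitals (TTCAAA and ATTGG are matches on the other strand, and neighbouring E2F matches may overlap, as in *Mcm5*). *Cdk1*, the kinase that starts mitosis, lies at chr10:69352913-69353072 on the minus strand, *Top2a*, a topoisomerase that untangles chromosomes, at chr11:99024190-99024349 on the minus strand, and *Ube2c*, a ubiquitin-conjugating enzyme of the anaphase-promoting complex, at chr2:164769769-164769928 on the plus strand. *Cdc20*, an activator of that complex, lies at chr4:118437344-118437503 on the minus strand and *Kif11*, a spindle motor, at chr19:37376222-37376381 on the plus strand. Of the S phase genes, *Cdc6*, which loads the helicase, lies at chr11:98907991-98908150 on the plus strand, *Mcm5* at chr8:75109349-75109508 on the plus strand and *Mcm6* at chr1:128359706-128359865 on the minus strand.
Cdk1: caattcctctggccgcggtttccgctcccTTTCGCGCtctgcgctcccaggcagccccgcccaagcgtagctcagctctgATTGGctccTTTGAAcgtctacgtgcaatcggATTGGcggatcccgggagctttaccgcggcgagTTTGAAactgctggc
Top2a: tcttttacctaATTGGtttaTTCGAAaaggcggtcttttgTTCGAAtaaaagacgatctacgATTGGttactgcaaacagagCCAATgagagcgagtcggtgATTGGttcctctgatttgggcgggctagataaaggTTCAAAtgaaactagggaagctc
Ube2c: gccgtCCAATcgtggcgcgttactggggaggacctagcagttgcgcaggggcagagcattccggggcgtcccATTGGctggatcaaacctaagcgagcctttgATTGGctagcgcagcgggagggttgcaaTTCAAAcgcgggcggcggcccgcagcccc
Cdc20: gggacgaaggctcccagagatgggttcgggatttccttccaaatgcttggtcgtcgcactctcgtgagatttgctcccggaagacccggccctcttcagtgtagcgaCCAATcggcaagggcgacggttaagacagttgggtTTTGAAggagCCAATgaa
Kif11: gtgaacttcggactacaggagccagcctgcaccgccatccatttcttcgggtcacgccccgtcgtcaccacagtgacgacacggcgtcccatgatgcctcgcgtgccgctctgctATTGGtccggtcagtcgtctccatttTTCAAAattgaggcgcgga
Cdc6: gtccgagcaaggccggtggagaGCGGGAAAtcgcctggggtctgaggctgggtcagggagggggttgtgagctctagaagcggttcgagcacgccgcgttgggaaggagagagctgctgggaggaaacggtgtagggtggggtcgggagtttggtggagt
Mcm5: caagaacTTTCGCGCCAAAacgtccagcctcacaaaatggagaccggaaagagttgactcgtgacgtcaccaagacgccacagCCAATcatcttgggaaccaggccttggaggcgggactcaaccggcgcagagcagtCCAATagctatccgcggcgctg
Mcm6: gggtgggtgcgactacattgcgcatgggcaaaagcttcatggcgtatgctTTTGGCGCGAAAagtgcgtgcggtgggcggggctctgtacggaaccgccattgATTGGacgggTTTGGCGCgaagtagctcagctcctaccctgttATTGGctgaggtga
All 5 G2/M stretches hold both CHR and CCAAT letters, and of these only *Cdk1* holds E2F letters. The 3 S phase stretches hold E2F letters and no CHR letters. These genes and stretches were picked after the matches were seen, so they are examples and not a test.

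The summed level of each set ranked the classes differently on S phase and on G2/M members. On 10×, the S phase members summed to 1510, 2540 and 1660 CPM in EM-like cells over the 3 days, against 1010, 707.6 and 594.1 CPM in LM-like cells. BA-like cells reached 1790 CPM at E16.5 and NP-like cells 1720 CPM at E12.5. LP-like cells held 1090 CPM at E14.5 and 811.4 CPM at E16.5, DF-like cells 1400 and 874.0 CPM, and cluster 1 held 1200 CPM at E12.5. EM-like cells exceeded LM-like cells on every day, with Poisson intervals that did not overlap.

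For the G2/M members the highest 10× level was that of NP-like cells at E12.5, 3150 CPM (95% Poisson interval 2970 to 3350). EM-like cells held 2030, 2070 and 2490 CPM over the 3 days, BA-like cells 2110 CPM and PE-like cells 2020 CPM (1660 to 2430, from 30 cells). The PE-like level of the S phase members was 568.8 CPM (386.5 to 807.4), the highest ratio of G2/M to S phase level (3.55) of any class. LP-like cells were lowest outside the neural classes, with 742.8 and 896.7 CPM, and N-like cells at E14.5 held 48.3 CPM (25.7 to 82.6). These intervals cover counting error only.

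On Smart-seq2 EM-like cells had the highest S phase levels, 5620, 8410 and 8020 CPM, and N-like cells the lowest, 814.4 and 707.6 CPM. The G2/M members summed to 4880 CPM in NP-like cells at E12.5 and to 1780, 4510 and 3780 CPM in EM-like cells, against 49.9 and 39.7 CPM in N-like cells at E12.5 and E14.5. Between sequencing batches of the same day the S phase levels were close in EM-like cells (8380 and 8450 CPM in batches 3 and 4 at E14.5), whereas the G2/M levels of NP-like cells were 5860 CPM in batch 1 and 1230 CPM in batch 2.

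**Figure D1:**
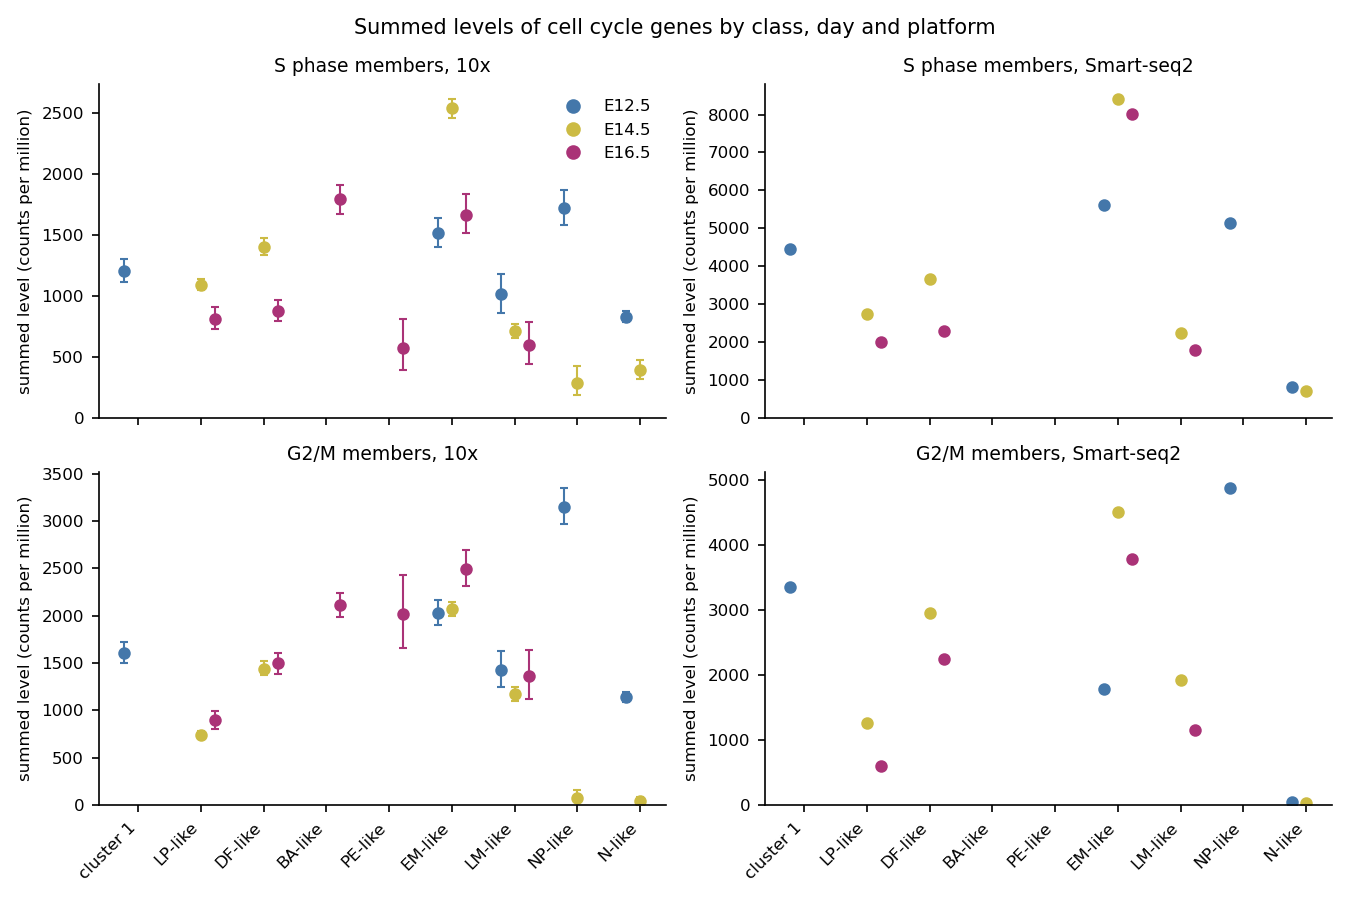
Summed level of the 22 S phase members and of the 22 G2/M members in CPM, for each class and day, with 10× and Smart-seq2 in separate panels; bars on 10× points are exact 95% Poisson intervals for counting error. EM-like S phase levels (1510 to 2540 CPM on 10×) lie above LM-like ones (594.1 to 1010 CPM) on every day, and N-like G2/M levels fall to 48.3 CPM at E14.5.

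The comparison of LM-like with EM-like cells follows the cycle genes as muscle progenitors become myocytes. Of 49 members tested, 42 were lower in LM-like cells and 2 were higher (edgeR, 5 pools, 10 sums), while 14.7% of the 7922 genes tested were lower and 12.0% were higher. The median log2 fold change was -1.43 over the members, -2.05 over the S phase members and -1.18 over the G2/M members, against -0.00 over all genes tested. *Cdkn2c* did not pass the filter on low counts. LM-like cells held as much of the EM markers as EM-like cells did (1640 and 1540 CPM on 10×) but 14200 CPM of the LM markers against 594.2 CPM.

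Of the S phase members, 20 of 22 fell and 16 of these were lower in every pool. *Mcm3*, a subunit of the replicative helicase, stood at 77.9, 95.5 and 64.5 CPM in EM-like cells on 10× over the 3 days and at 662.97 and 527.6 CPM on Smart-seq2 at E14.5 and E16.5. The LM-like values were 25.6, 21.3 and 12.4 CPM and 90.9 and 81.4 CPM, and the classes did not overlap on either platform (log2 fold change -2.49 ± 0.20 (SE), adjusted p = 1.97e-08, 5.63-fold lower). *Mcm5*, another subunit, ran from 56.7 to 83.5 CPM in EM-like cells on 10× and from 12.4 to 25.6 CPM in LM-like cells, and on Smart-seq2 522.8 and 432.1 CPM stood against 87.6 and 60.1 CPM (-2.37 ± 0.22, adjusted p = 1.35e-07). The LM-like values of *Mcm3* and *Mcm5* on 10× at E16.5 rest on 1 UMI each.

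*Dtl*, the adaptor of the ubiquitin ligase that degrades Cdt1 and p21 in S phase, was at 151.2, 214.1 and 110.1 CPM in EM-like cells on 10× and at 38.4, 35.9 and 37.1 CPM in LM-like cells. On Smart-seq2 it was at 307.9 CPM against 42.6 CPM at E16.5, and it was lower in all 5 pools, again without overlap (-2.45 ± 0.19, adjusted p = 1.27e-08). The LM-like value on 10× at E16.5 rests on 3 UMIs. *Pcna*, the sliding clamp of DNA polymerase, fell by 2.10 on the log2 scale and *Ccne1*, cyclin E1, fell by 2.13. Both were lower in all 5 pools.

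*Mcm2* was the S phase member without a call. It was at 49.6, 51.1 and 45.6 CPM in EM-like cells on 10× and at 19.2, 74.5 and 49.5 CPM in LM-like cells, and at 560.5 and 396.1 CPM against 292.1 and 201.9 CPM on Smart-seq2. LM-like cells were higher on 10× at E14.5 and E16.5 and lower in the other 3 pools (-0.49 ± 0.22, adjusted p = 0.115). The E16.5 10× values rest on 4 UMIs in LM-like and 12 UMIs in EM-like cells. Without the E14.5 10× pool *Mcm2* passed (-0.81, adjusted p = 0.0157), and on the 10× pools alone its sign changed (0.25, adjusted p = 0.675). It also passed with cycle genes kept in the clustering (-0.74, adjusted p = 0.0249). *E2f1*, an activating E2F, was lower in all 5 pools (-1.80, adjusted p = 0.0359), but its call was lost without the 10× pool of E14.5 (adjusted p = 0.129), that of E16.5 (0.126) or the Smart-seq2 pool of E16.5 (0.17).

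The S phase member that rose was *E2f8*, an E2F without a transactivation domain that represses E2F targets. Its LM-like levels were 32, 47.9 and 37.1 CPM on 10× and 134.7 and 118.7 CPM on Smart-seq2. The EM-like levels were 18.9, 22.5 and 11.4 CPM and 33.2 and 42.6 CPM, below the LM-like value in every pool (1.62 ± 0.25, adjusted p = 7.35e-05, 3.07-fold higher). On 10× at E16.5 *E2f8* had 3 UMIs in each of the classes. *E2f7*, its paralog, is no member and fell by 2.71 (adjusted p = 0.000536).

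Of the 22 G2/M members 20 fell, 15 of them in every pool, with log2 fold changes of all 22 between -2.36 and -0.41. *Top2a* was at 316.5, 298.1 and 398.6 CPM in EM-like cells on 10× and at 172.98, 131.7 and 210.4 CPM in LM-like cells, and on Smart-seq2 at 462.4 and 484.5 CPM against 141.01 and 128.3 CPM (-1.36 ± 0.16, adjusted p = 3.49e-06). *Mki67*, whose protein coats mitotic chromosomes, fell by 1.56. *Cdk1* fell by 1.40 and *Ccnb1*, its partner cyclin B1, by 1.19. *Cdk1* was lower in 4 of 5 pools, the exception being 10× at E12.5 with 101.6 CPM in EM-like cells and 128.1 CPM in LM-like ones. *Aurka*, a spindle pole kinase (-0.80, adjusted p = 0.0628), and *Cenpa*, the centromeric histone (-0.41, adjusted p = 0.0597), did not pass. *Aurka* passed without the E12.5 10× pool (-0.94, adjusted p = 0.0452) and with all deposited cells (-1.29, 0.0211). *Cenpa* passed without the E16.5 Smart-seq2 pool (-0.47, 0.0479), with DESeq2 (-0.43, 0.0347) and with relative log expression size factors (-0.43, 0.0444). With cycle genes kept in the clustering, where members can help to form the classes, both passed (-2.72, 0.000146 and -1.07, 0.000162). Whether S phase members fell more than G2/M members was not tested.

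Among the G1 regulators *Cdkn1a*, which encodes the inhibitor p21, changed most. EM-like cells held 18.9, 42.6 and 41.8 CPM on 10× and 13.7 and 91.2 CPM on Smart-seq2, and LM-like cells 563.8, 792.7 and 408.4 CPM and 371.9 and 630.7 CPM. LM-like cells were higher in every pool, and the classes did not overlap on either platform (4.03 ± 0.26, adjusted p = 1.86e-09, 16.4-fold higher). *Ccnd1* (cyclin D1) fell by 2.32 (adjusted p = 0.00046). It had no UMI in the LM-like cells of E16.5, where a count of 0 allows up to 37.1 CPM, so that pool cannot show a difference from the 22.8 CPM of EM-like cells.

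*Ccnd2* (cyclin D2) was at 212.6, 70.6 and 38 CPM in EM-like cells on 10× and at 70.5, 7.98 and 49.5 CPM in LM-like cells, and at 155.5 and 93.4 CPM against 10.7 and 1.79 CPM on Smart-seq2 (-3.66 ± 0.50, adjusted p = 1.89e-05). It was lower in 4 of 5 pools. The exception, 10× at E16.5, rests on 4 UMIs in LM-like and 10 UMIs in EM-like cells. *Ccnd3* (cyclin D3) stayed high in both classes, at 297.6 to 437.4 CPM for EM-like and 284.7 to 393.7 CPM in LM-like cells on 10× (-0.26 ± 0.13, adjusted p = 0.14). *Cdkn1b* (p27) was at -0.24 ± 0.46 (adjusted p = 0.757).

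Genes of the same pathways outside the panel were read by counts. All 19 of the other replication genes tested were lower, led by *Chaf1a* (-2.79), *Clspn* (-2.49) and *Mcm10* (-2.38), and so were 17 of 20 other mitosis genes (*Ttk*, *Incenp* and *Kif2c* by 1.84 to 2.16). Of 15 Rb, E2F and DREAM genes tested, 8 were lower, among them *Rbl1* (-2.50, the pocket protein p107), and 1 was higher, *Rb1* (3.32 ± 0.31, the retinoblastoma gene). Of 12 kinases, phosphatases and other inhibitors 6 were lower, such as *Wee1* (-3.42), *Cdc25a* (-1.51) and *Cks2* (-1.05), and 1 was higher. Of 7 p53 targets tested *Trp53inp1* (2.20) and *Ccng1* (1.68) were higher.

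On the 10× pools alone 23 of 38 members tested were called, where *Cdk1* (adjusted p = 0.147) and *Ccnb1* (0.168) no longer passed. Fewer of all genes were tested and called there too. With a pool left out at a time the count was 37 to 45. Within the Smart-seq2 batches of E14.5, the S phase level was 8380 CPM in the EM-like cells of batch 3 against 1990 CPM in its LM-like cells, and 8450 against 2740 CPM in batch 4.

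**Figure D2:**
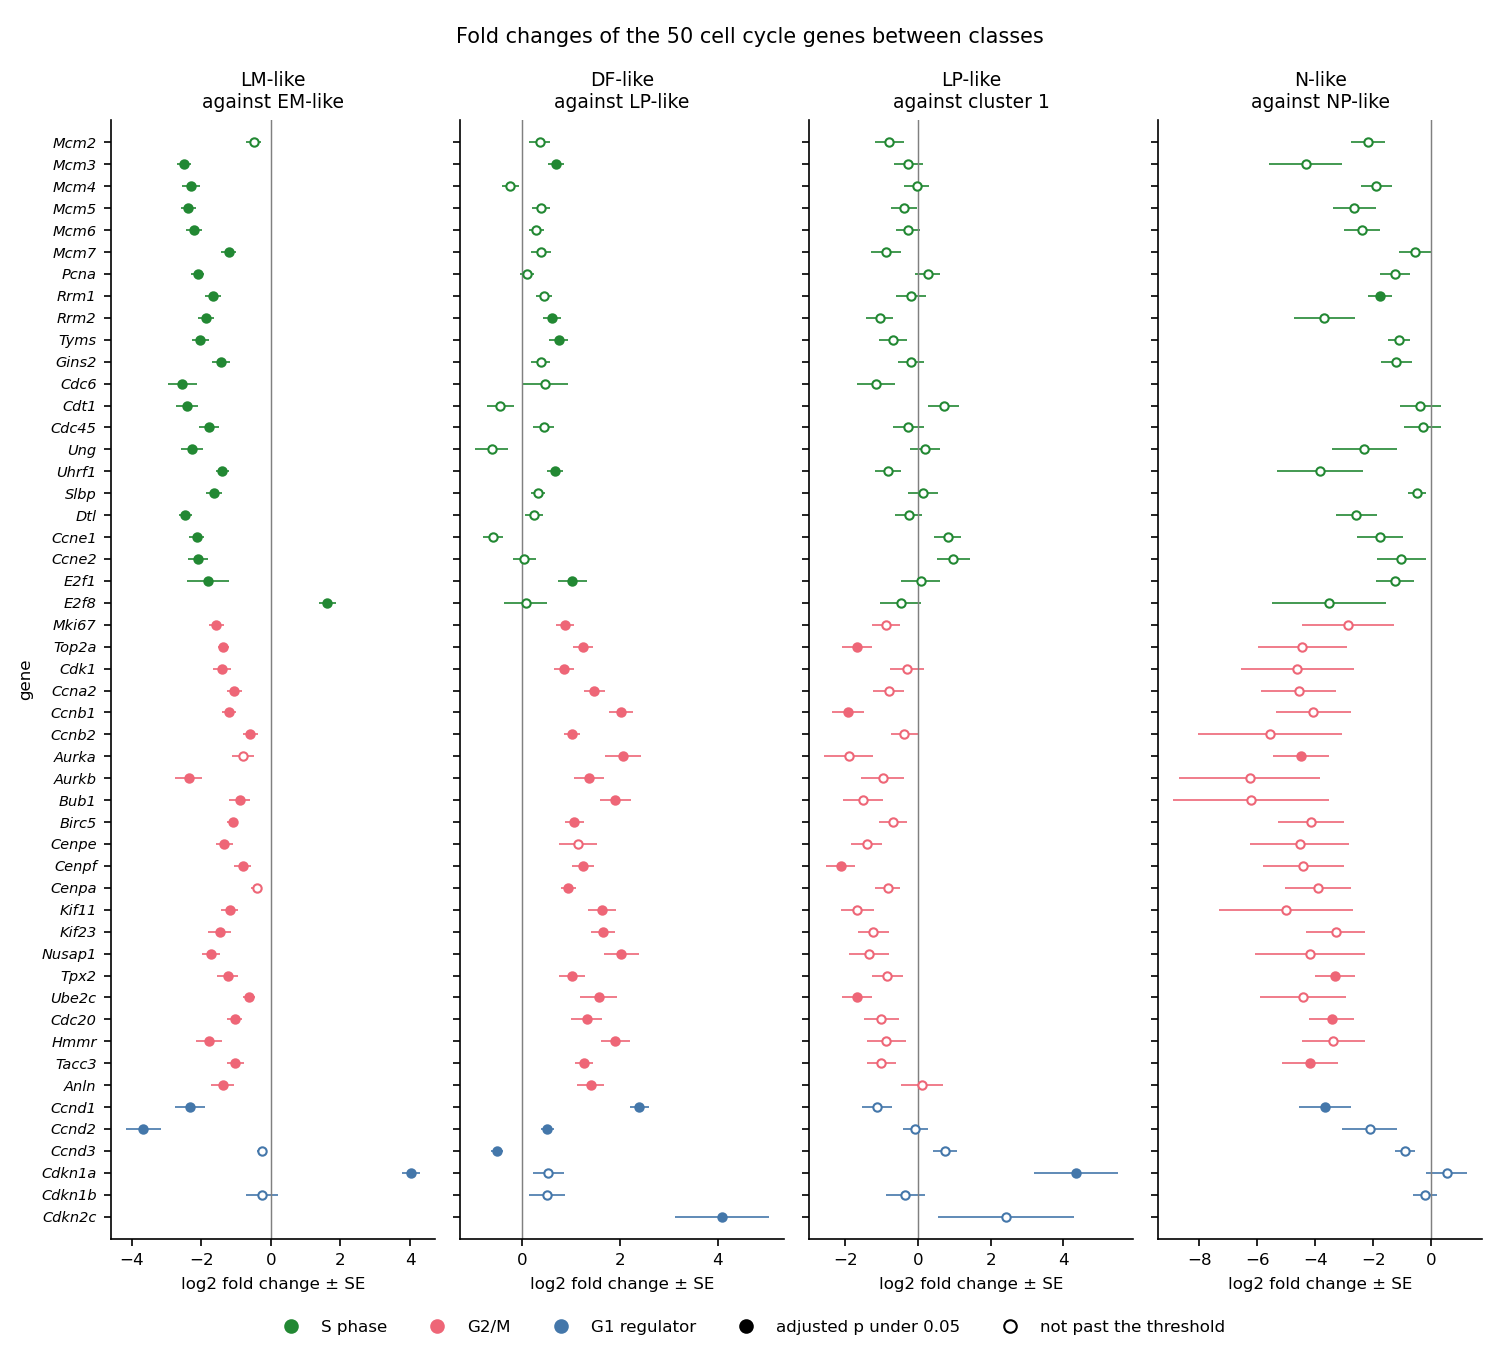
Log2 fold change of each member, with its standard error, in the 4 comparisons of classes (LM-like against EM-like, DF-like against LP-like, LP-like against cluster 1, N-like against NP-like); filled points have an adjusted p under 0.05 in edgeR. In muscle 47 members lie below 0, 42 of them filled, and *Cdkn1a* and *E2f8* above it, while DF-like cells lie above LP-like cells in all 22 G2/M members, 21 of them filled.

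DF-like and LP-like cells are both fibroblast-like progeny, and their comparison asks whether the dermal and the late progenitor branch hold the cycle genes at the same level. In 4 pools (8 sums) 29 of 50 members were higher in DF-like cells and 1 was lower, while 5.94% of the 13092 genes tested were higher and 7.19% were lower. Of the G2/M members 21 of 22 rose, with a median of 1.35 and a range of 0.86 to 2.07. Of the S phase members 5 of 22 rose and 18 had a fitted value above 0, with a median of 0.37, and of the 6 G1 regulators 3 rose and 1 fell. The median over all genes was -0.03. Whether the sets differed from each other was not tested. LP-like cells carried tendon markers at 158.5 to 330.6 CPM over the pools against 13.0 to 86.7 CPM in DF-like cells, and cartilage markers at 116.3 to 243.5 CPM against 19.7 to 35.3 CPM, and the part of these in the result was not tested.

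*Ccnb1* was at 54 and 17.3 CPM in DF-like cells on 10× and at 19.3 and 5.17 CPM in LP-like cells at E14.5 and E16.5, and at 214.4 and 197.1 CPM against 62.5 and 30.4 CPM on Smart-seq2 (2.02 ± 0.25, adjusted p = 0.00023). The LP-like value at E16.5 on 10× rests on 2 UMIs, with a counting ratio of 3.36 (0.67 to 32.4). *Aurka* was at 15 and 17.3 CPM in DF-like cells on 10× and at 4.72 and 7.75 CPM in LP-like cells, and at 42 and 40.5 CPM against 12.1 and 5.37 CPM on Smart-seq2 (2.07 ± 0.37, adjusted p = 0.00337). Both genes were higher in DF-like cells in every pool.

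*Top2a* rose by 1.25 ± 0.21 (adjusted p = 0.00186), from 89.6 and 121.5 CPM in LP-like cells to 134.96 and 279.8 CPM in DF-like cells on 10× and from 115.8 and 51.2 CPM to 270.4 and 192.4 CPM on Smart-seq2. *Mki67* (0.88, adjusted p = 0.00976) and *Cdk1* (0.86, adjusted p = 0.0162) were also higher in all 4 pools, but *Cdk1* did not pass without the E16.5 10× pool (0.91, adjusted p = 0.0623). The G2/M member without a call was *Cenpe*, a kinetochore motor (1.15 ± 0.39, adjusted p = 0.0782), named after its value was seen. The 5 S phase members called were *Mcm3* (0.69), *Uhrf1* (0.67, which guides DNA methylation at the fork), *Tyms* (0.75) and *Rrm2* (0.61), which make nucleotides, and *E2f1* (1.03), and apart from *E2f1* they are named because they were so few. All 5 of these calls were lost without the E14.5 10× pool (adjusted p of 0.06 for *Mcm3*, 0.0688 for *Uhrf1*, 0.141 for *Tyms*, 0.216 for *Rrm2* and 0.169 for *E2f1*). All 5 were also lost when cells were clustered at resolution 1.2 (0.0581, 0.0837, 0.112, 0.825 and 0.0604 in the same order). The *Rrm2* value was 0.13 there. In that clustering a cluster with its highest score for tendon markers (mean z-score 3.48) stayed unnamed. *Rrm2* also missed without the E16.5 pool of 10× (0.104) or of Smart-seq2 (0.0948), *Tyms* without the E14.5 Smart-seq2 pool (0.0599), and *E2f1* without the E16.5 10× pool (0.128) or the E14.5 Smart-seq2 pool (0.0955), while *Cenpe* passed without either of the last 2 pools (0.0318 and 0.0287).

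*Pcna* (0.10 ± 0.15), *Mcm2* (0.36 ± 0.21) and *Mcm5* (0.39 ± 0.18) did not pass. *Ccne1* was lower in DF-like cells in all 4 pools without passing (-0.59 ± 0.21, adjusted p = 0.1), with 36 and 36.9 CPM against 45.7 and 38.8 CPM on 10×.

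The D cyclins differed in opposite directions. *Ccnd1* was at 204.9 and 143.1 CPM in DF-like cells and at 53.3 and 38.8 CPM in LP-like cells on 10×, and at 254.3 and 233.01 CPM against 37.4 and 36 CPM on Smart-seq2, with no overlap (2.40 ± 0.20, adjusted p = 1.66e-05, 5.27-fold higher). *Ccnd3* was at 209.9 and 208.2 CPM in DF-like cells and at 295.2 and 292.01 CPM in LP-like cells on 10×, and at 610.2 and 673.5 CPM against 949.8 and 868.1 CPM on Smart-seq2 (-0.51 ± 0.12, adjusted p = 0.0145). Its call was lost without either 10× pool (adjusted p = 0.0602 and 0.0605) or without the E14.5 Smart-seq2 pool (0.056), although it was lower in all 4 pools. *Ccnd2* was higher by 0.52 ± 0.14 (adjusted p = 0.0299), and this call was lost without the 10× pool of E16.5 (0.144) or the Smart-seq2 pool of E16.5 (0.0573).

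*Cdkn2c*, which encodes the CDK4/6 inhibitor p18, had the largest fitted difference (4.09 ± 0.96, adjusted p = 0.0151) at low counts. On 10× DF-like cells held 11 and 13 UMIs and LP-like cells 3 and 2 UMIs, which gave ratios of 7.77 (2.05 to 43.4) at E14.5 and 5.46 (1.23 to 49.8) at E16.5, and on Smart-seq2 18.2 and 5.29 CPM stood against 1.30 and 0.0 CPM. The fitted value depends on the prior count, and the call was lost without the E14.5 10× pool (adjusted p = 0.0627) or the E16.5 10× pool (0.0751). *Cdkn1a* (0.54 ± 0.31) and *Cdkn1b* (0.51 ± 0.36) did not pass.

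In the neighbouring pathways 14 of 20 other mitosis genes were higher in DF-like cells (*Kif2c* by 1.55, *Ndc80* by 1.52, *Bub1b* by 1.51), as was *Foxm1*, the activator of G2/M genes (1.57, adjusted p = 0.0182). Of 20 other replication genes 4 were higher (*Chaf1a* by 0.98, *Fen1* by 0.96, *Lig1* by 0.87). *Cdkn1c*, which encodes the inhibitor p57, was lower (-1.61 ± 0.11, adjusted p = 4.17e-06), and the phosphatases *Cdc25c* (1.42) and *Cdc25b* (1.30) were higher. Of the Rb, E2F and DREAM genes *E2f6* was lower (-1.03), and of 10 p53 targets *Phlda3* was lower (-1.12).

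On the 10× pools alone 11 of 44 members tested were called, and with a pool left out at a time 22 to 28. Fewer of all genes were tested and called on the 10× pools alone as well. The G2/M level of LP-like cells was 1400 CPM in batch 3 (40 cells) and 142.2 CPM in batch 4 (10 cells) of Smart-seq2 at E14.5, and that of DF-like cells was 3070 CPM in batch 3.

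LP-like cells of E14.5 and E16.5 were set against cluster 1 of E12.5 in place of early progenitors, so that class and day cannot be told apart. Of 50 members 1 was higher and 4 were lower in LP-like cells (6 sums, 3 residual degrees of freedom), while 4.75% of 14034 genes tested were higher and 0.891% were lower. The median was -1.00 over the G2/M members, of which 16 were below cluster 1 in every LP-like pool of the same platform, and -0.26 over the S phase members, against 0.11 over all genes. How many of all genes lay below cluster 1 in every pool was not counted. With relative log expression size factors the median of all genes moved to -0.00.

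*Cdkn1a* was at 22.2 CPM in cluster 1 on 10× and at 112.7 and 74.9 CPM in LP-like cells, and at 3.12 CPM against 19.2 and 214.6 CPM on Smart-seq2 (4.35 ± 1.16, adjusted p = 0.0487). *Ccnb1* was at 50.5 CPM in cluster 1 and at 19.3 and 5.17 CPM in LP-like cells on 10×, and at 284.6 CPM against 62.5 and 30.4 CPM on Smart-seq2 (-1.92 ± 0.43, adjusted p = 0.024). *Cenpf*, which sits at the kinetochore, fell by 2.12 ± 0.40 (adjusted p = 0.0106), *Top2a* by 1.67 ± 0.41 (0.034) and *Ube2c* by 1.67 ± 0.42 (0.0379). For these 5 genes the LP-like value was on the same side of cluster 1 in each pool. The calls rested on few sums. Without either E12.5 pool cluster 1 was 1 sum, so these fits cannot test the calls and only log2 fold changes are given. Without the E12.5 Smart-seq2 pool they were 2.33 for *Cdkn1a*, -1.1 for *Top2a*, -1.59 for *Ccnb1*, -2.03 for *Cenpf* and -0.86 for *Ube2c*. Without the E12.5 10× pool they were 5.74 for *Cdkn1a*, -2.29 for *Top2a*, -2.3 for *Ccnb1* and -2.35 for *Cenpf*. Of the members, 1 was called without the E14.5 10× pool and 1 without the E16.5 10× pool. When the E14.5 or the E16.5 Smart-seq2 pool was left out, 10 and 8 were called. Over all genes, fewer were called in both directions than in the main fit without either of these 10× pools. More were called in both directions without either of these Smart-seq2 pools. Without the E14.5 10× pool the adjusted p was 0.158 for *Cdkn1a*, 0.11 for *Top2a*, 0.0592 for *Cenpf* and 0.0988 for *Ube2c*. Without the E16.5 10× pool it was 0.114 for *Cdkn1a*, 0.0684 for *Top2a*, 0.0784 for *Ccnb1* and 0.0894 for *Ube2c*. *Cdkn1a* missed the threshold with DESeq2 (3.72, adjusted p = 0.0556) and with the other size factors (4.23, 0.0769). Cartilage markers summed to at most 615.1 CPM in cluster 1 and 243.5 CPM in LP-like cells, and their part in the result was not tested. In the other pathway lists *Cdkn1c* (1.73) and *Phlda3* (1.41) were higher and *Plk1* (-2.16) and *Bub1b* (-1.71), which both act in mitosis, were lower. No other gene of these lists was called.

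N-like cells were set against NP-like cells in 3 pools, 10× at E12.5 and E14.5 and Smart-seq2 at E12.5. Of 47 members tested, 6 were lower and none was higher at an adjusted p under 0.05 in edgeR, where 31 were lower at an unadjusted p under 0.05. Of the 8857 genes tested, 1.57% were lower and 4.63% were higher after adjustment. The share of all genes lower at an unadjusted p under 0.05 was not counted. The median was -4.41 over 21 G2/M members, -1.77 over 21 S phase members and 0.02 over all genes. DESeq2 also called no member higher.

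*Tacc3*, which stabilises spindle microtubules, was at 61.7 and 11.1 CPM in NP-like cells on 10× at E12.5 and E14.5 and at 18.8 and 0.0 CPM in N-like cells, which held 4.08 CPM on Smart-seq2 and were lower there too (-4.17 ± 0.96, adjusted p = 0.042). *Ccnd1* was at 461.2, 110.7 and 473.1 CPM (10× E12.5, 10× E14.5 and Smart-seq2 E12.5) against 198.97, 3.71 and 9.02 CPM (-3.65 ± 0.90, adjusted p = 0.0496). Both were lower in N-like cells in each pool, and both calls were lost without the E14.5 10× pool (adjusted p = 0.0701 and 0.121). For *Tacc3* that pool held 1 UMI in NP-like cells and 0 in N-like cells. A count of 0 there allows up to 11.1 CPM, so that pool cannot show a difference in *Tacc3*. The other 4 calls were *Aurka* (-4.48), *Cdc20* (-3.43), *Tpx2* (-3.32, a spindle assembly factor) and *Rrm1* (-1.77, ribonucleotide reductase), named because they were few. *Rrm1* missed without the E12.5 Smart-seq2 pool (-1.15, adjusted p = 0.111).

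The size of the difference depended on the pool. *Top2a* was at 505.2 CPM in NP-like and 173.5 CPM in N-like cells on 10× at E12.5, at 0.0 and 3.71 CPM on 10× at E14.5, and at 824.3 and 3.50 CPM on Smart-seq2 (-4.44 ± 1.53, adjusted p = 0.131). *Cdk1* was at 108.7 and 31.5 CPM, 0.0 and 7.43 CPM, and 119.8 and 0.108 CPM. On 10× at E14.5 both genes had 0 UMIs in NP-like cells, and N-like cells held 1 UMI of *Top2a* and 2 of *Cdk1*. A count of 0 in these NP-like cells allows up to 33.2 CPM, so that pool cannot show a difference in either gene. Without the E12.5 10× pool 33 of the 47 members tested in that fit, which had 1 residual degree of freedom, were called, *Top2a* (-7.55, adjusted p = 8.11e-20), *Cdk1* (-8.64, 3.35e-13), *Mki67*, *Ccnb1*, *Mcm2*, *Mcm5* and *Ccnd2* among them. More of all genes were tested and called in that fit as well. *Top2a* also passed without the Smart-seq2 pool (-1.40, 0.0431), and *Pcna* without the E14.5 10× pool (-1.78, 0.0466). On 10× at E12.5, N-like cells with at least 2 G2/M members held 1710 CPM of NP markers and 5210 CPM of N markers, against 810.7 and 8120 CPM in N-like cells with none. On Smart-seq2 at E12.5 the values were closer, at 180.3 CPM of NP markers and 11400 CPM of N markers against 155.9 and 12400 CPM. The part of this in the result was not tested.

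NP-like cells at E14.5 were few and nearly without G2/M members. Their 29 cells on 10× held 7 UMIs of all 22 G2/M members (77.5 CPM, 95% Poisson interval 31.1 to 159.6), against 1074 UMIs at E12.5. Of these 29 cells, 11 came from cluster 16, which was led by *Aldoc*, *Fabp7* and *Mt3*, and 18 from cluster 6. *Ccnd1* (110.7 CPM) and *Ccnd2* (132.8 CPM) were still present at E14.5. Of the other lists *Cdk2* (-3.82), *Cks2* (-2.61), *Rfc2* (-1.32), *Mad2l1* (-2.94), *Smc4* (-2.54) and *Hmgb2* (-2.27) were lower, and none of the Rb, E2F and DREAM genes or p53 targets was called.

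Across classes the D cyclins and inhibitors formed a different pattern in each lineage. On 10× *Ccnd1* was highest in NP-like cells at E12.5 (461.2 CPM), followed by DF-like cells at E14.5 (204.9 CPM), N-like cells at E12.5 (198.97 CPM) and DF-like cells at E16.5 (143.1 CPM), and it was at 22.8 to 37.8 CPM in EM-like cells. *Ccnd2* was highest in DF-like cells (696.8 and 464.1 CPM), cluster 1 (658.8 CPM) and LP-like cells (537.2 and 286.8 CPM). *Ccnd3* was highest in muscle, with 297.6 to 437.4 CPM for EM-like and 284.7 to 393.7 CPM in LM-like cells, close to LP-like cells (295.2 and 292.01 CPM), and lowest in N-like cells (56.3 and 33.4 CPM). *Cdkn1a* was at 408.4 to 792.7 CPM in LM-like cells on 10× and at no more than 147.8 CPM in any other class. *Cdkn1b* stayed between 0.0 and 55.3 CPM on 10×, with its highest value, from 5 UMIs, in NP-like cells at E14.5.

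**Figure D3:**
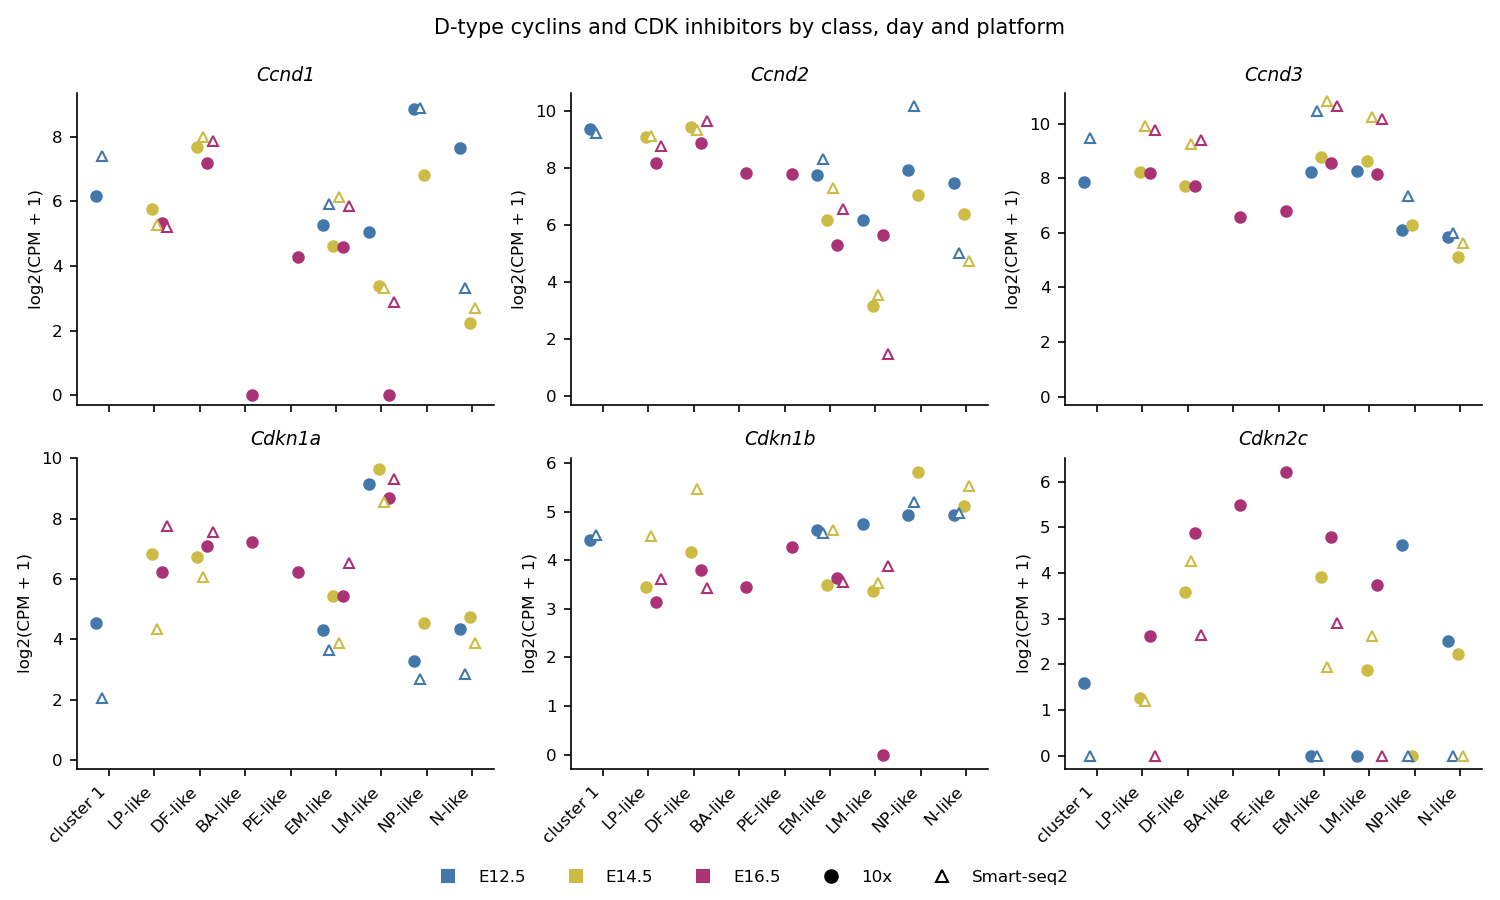
Levels of the 6 G1 regulators as log2(CPM + 1) for each class, day and platform, with 1 panel per gene; a point is the sum over the cells of a class in 1 pool. *Cdkn1a* stands highest in LM-like cells (408.4 to 792.7 CPM on 10×), *Ccnd3* is high in EM-like and LM-like cells, and *Ccnd1* has no UMI in BA-like cells.

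After the filter on cells, BA-like cells were measured in 1 pool of enough cells, the E16.5 10× library, so their values are compared by counts without a replicate. The S phase members summed to 894 of 500716 UMIs (1790 CPM), 2.20 times the LP-like level (conditional exact 95% interval 1.93 to 2.51) and 2.04 times the DF-like level (1.81 to 2.30) in the same library. The G2/M members summed to 1058 UMIs (2110 CPM), 2.36 times the LP-like (2.09 to 2.67) and 1.41 times the DF-like level (1.28 to 1.55). BA-like cells were above both classes in 18 of 22 S phase and 15 of 22 G2/M members. For some of these members the interval of the ratio held 1. The share of all genes above both classes was not counted. The intervals given here compare sums of 1 library and hold for counting error alone.

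*Rrm2*, the regulated subunit of ribonucleotide reductase, was at 315.5 CPM in BA-like cells, 38.8 CPM in LP-like and 56.4 CPM in DF-like cells, a ratio of 8.14 (4.79 to 14.9) and of 5.60 (3.68 to 8.83). *Ccnb1* was at 101.9 CPM against 17.3 CPM in DF-like cells (5.87, 2.77 to 14.3) and 5.17 CPM, from 2 UMIs, in LP-like cells (19.7, 5.18 to 167.1). *Mki67* was at 131.8 CPM against 46.5 CPM and 80.2 CPM. *Rrm2* is named after its values were seen.

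Their D cyclins were low. *Ccnd1* had no UMI in 500716, which allows up to 5.99 CPM and makes it at least 6.48-fold lower than in LP-like cells (38.8 CPM) and at least 23.9-fold lower than in DF-like cells (143.1 CPM). *Ccnd3* was at 93.9 CPM, 0.321 times the LP-like level (0.224 to 0.456) and 0.451 times the DF-like level (0.311 to 0.646). *Ccnd2* was at 223.7 CPM, 0.482 times the DF-like (0.380 to 0.609) and 0.780 times the LP-like level (0.594 to 1.02). *Cdkn1a* was at 147.8 CPM, above LP-like cells (74.9 CPM) and within the counting interval of DF-like cells (134.5 CPM).

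The 14 BA-like Smart-seq2 cells of E16.5, too few for a sum in the tests, held 7670 CPM of S phase and 3180 CPM of G2/M members, against 1990 and 598.96 CPM in LP-like and 2300 and 2250 CPM in DF-like cells of the same batch. With all deposited cells kept, 61 BA-like cells of E16.5 on Smart-seq2 held 5410 CPM of S phase and 3690 CPM of G2/M members. In that setting LP-like cells held 2000 and 559.8 CPM and DF-like cells 2390 and 2240 CPM. In the bulk Pdgfra-/Cd36+ libraries, whose BA markers summed to 32200 and 29800 CPM, the S phase members summed to 2210 and 2850 CPM and the G2/M members to 2010 and 2580 CPM. *Ccnd1* was at 2.65 and 6.16 CPM in them, *Ccnd2* at 159.2 and 222.5 CPM, *Ccnd3* at 119.1 and 161.5 CPM, and *Rrm2* at 377.4 and 483.9 CPM. Erythroid markers summed to 512.7 and 276.9 CPM in them, and their part in these levels was not tested. Replicate 2 was above replicate 1 in all 50 members, *Cdkn1b* (12.7 and 12.9 CPM) included. In bulk, fewer cells of a type and less RNA per cell cannot be told apart, and no other bulk library was compared with these.

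The share of cells in which at least 2 of the 22 G2/M members were detected was read after each 10× cell of at least 1000 UMIs was thinned to 1000 UMIs. Shallower cells were left out, so that the shares describe the deeper cells. At E12.5 this left out 25.1% of NP-like cells, 15.8% of cluster 1, 7.26% of N-like and 3.27% of EM-like cells, and at E16.5 13.3% of PE-like, 12.4% of DF-like, 10.5% of EM-like, 9.28% of LP-like, 2.56% of LM-like and 0.637% of BA-like cells, while at E14.5 it left out only 1.25% of N-like cells and no cell of the other classes. The share was 59.4% in NP-like cells at E12.5 (exact 95% interval 50.3 to 68), 52.6% in BA-like cells at E16.5 (44.4 to 60.6) and 44.6%, 39.1% and 44.1% in EM-like cells over the 3 days. NP-like cells stayed highest at 500 UMIs (34.5%) and with at least 3 members (46.9%), but BA-like cells did not stay above EM-like cells. At 500 UMIs BA-like cells were at 19.7% and EM-like cells at 21.6%, 22.8% and 21.9%, and with at least 3 members BA-like cells were at 26.9%, EM-like cells at 29.7%, 20.8% and 33.1% and PE-like cells at 34.6%. DF-like cells held 24.1% and 25.4% and LP-like cells 10.1% and 15.3% at E14.5 and E16.5. PE-like cells stood at 38.5% (20.2 to 59.4, 26 cells) and cluster 1 at 28.7%. Before thinning the shares were 64.3% in NP-like cells at E12.5, 79.6% in BA-like cells and 58.8%, 80.7% and 49.3% in EM-like cells. The median depths of EM-like cells were 2430, 8080 and 1710 UMIs, so that the order of the days followed depth.

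LM-like cells were taken as a background because they should be largely postmitotic. They had 21.3%, 15.4% and 21.1%, at median depths of 2850, 6920 and 1770 UMIs. The LM-like level depended on the clustering. With cycle genes kept in it, where members can help to form the classes, LM-like G2/M levels on 10× were 618.3, 402.99 and 755.7 CPM. They were 1430, 1170 and 1360 CPM with these genes left out. The part of cycling cells in the LM-like class was not tested. The LP-like shares did not exceed those of LM-like cells on the same day. The DF-like share lay just above the LM-like interval at E14.5 (9.06 to 23.8) and within it at E16.5 (9.55 to 37.3). N-like cells stood at 23.8% on 10× at E12.5 but at 0 of 79 cells at E14.5, which allows a share of up to 3.8%, and NP-like cells at 0 of 29 at E14.5, which allows up to 10.3%. Free RNA gives UMIs in cells that do not express a gene. The LM-like cells with at least 2 G2/M members held 6300 to 9350 CPM of LM markers over the 3 days, against 14000 to 17800 CPM in LM-like cells with none. They also had more UMIs at the median (4280, 9300 and 2570 against 2490, 6830 and 1690). The part of free RNA and of depth in these shares was not tested.

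On Smart-seq2, thinned to 100000 counts, the share was 95%, 95.8% and 98.1% in EM-like cells, 77.5% and 73.3% in LM-like cells and 43.8% in N-like cells at E12.5, so that detection alone does not separate cycling from other cells on that platform. EM-like shares exceeded LM-like shares in 5 of 5 pools and DF-like shares exceeded LP-like shares in 3 of 4, the exception being Smart-seq2 at E16.5 (61.6% and 77%).

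**Figure D4:**
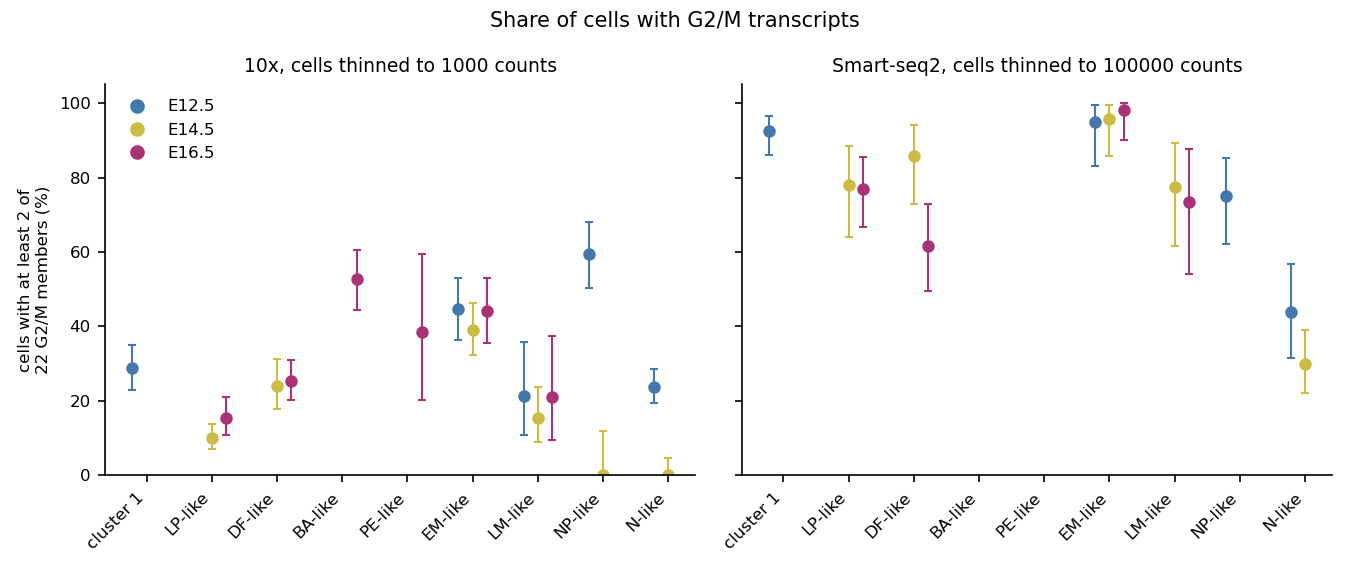
Percent of cells with at least 2 of the 22 G2/M members, by class and day, after thinning to 1000 UMIs (10×) or 100000 counts (Smart-seq2); bars are exact 95% binomial intervals. On 10× NP-like cells at E12.5 are at 59.4% and BA-like cells at 52.6% (19.7% at 500 UMIs, below EM-like cells), LM-like cells lie at 15.4% to 21.3%, and N-like cells at E14.5 are at 0.

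Between days no member passed the threshold in any class, in edgeR with 28 sums and 11 residual degrees of freedom over 13577 genes. For EM-like cells at E14.5 against E12.5, 0.530% of genes were higher and 0.781% lower. Of the members 3 were higher at an unadjusted p under 0.05 (*Pcna*, *Cdt1* and *Ccne1*) and none was lower, and DESeq2 gave 4 and 0, with no call after adjustment. Of 50 members 48 had a fitted value above 0, and 35 were higher on both platforms, 19 of 22 S phase and 13 of 22 G2/M members among them. The median was 0.90, against 0.05 over all genes (-0.08 with relative log expression size factors). The shares of all genes at an unadjusted p under 0.05, or higher on both platforms, were not counted.

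*Ccne1* was at 101.6, 262.2 and 201.2 CPM in EM-like cells on 10× over the 3 days and at 286.4, 827.2 and 659.8 CPM on Smart-seq2 (E14.5 against E12.5, 1.64 ± 0.65, adjusted p = 0.273). *Pcna* was at 118.1, 250.6 and 197.4 CPM and at 326.99, 664.9 and 860.3 CPM (1.25 ± 0.43, adjusted p = 0.186). Both were lowest at E12.5 on both platforms. *Mcm5* (0.75 ± 0.60, adjusted p = 0.68) and *E2f1* (0.55 ± 0.74, 0.834) were also above 0 without passing. Of the other lists *Rfc4*, a clamp loader subunit (1.99, adjusted p = 0.0254), and *Trp53inp1* (3.69, 0.0164) were higher. EM-like cells at E12.5 were mostly cluster 9, led by *Afp*, *Alb* and *Erbb3*, and at E14.5 cluster 4, led by *Msc* and *Kcne1l*, and the part of this in the difference was not tested.

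From E14.5 to E16.5 the members of EM-like cells had a median of -0.05 against -0.07 over all genes, where 0.155% of genes were higher and 0.324% lower. The LP-like median was -0.22 against -0.03, with 24 members lower on both platforms, where 0.0737% of genes were higher and 0.177% lower. The DF-like median was -0.12 against -0.03, with 30 members lower on both platforms, 18 of the 22 S phase members among them, where 0.0958% of genes were higher and 0.287% lower. At an unadjusted p under 0.05 edgeR gave 0 members for EM-like cells, 0 for LP-like cells and 1 lower for DF-like cells (*Cdkn1b*), and DESeq2 gave 1 higher, 1 higher and 2 lower, with no call after adjustment. For all genes, the shares at that threshold and the shares lower on both platforms were not counted. The days also lay in different clusters on 10×, from E14.5 to E16.5 from cluster 4 (all but 2 cells) to cluster 11 (97.4%) in EM-like cells, from clusters 3 and 12 (69.2% and 30.8%) to mostly cluster 7 (with 10.5% in cluster 3) in LP-like cells, and from cluster 8 (99.4%) to cluster 2 (all cells) in DF-like cells. On Smart-seq2 DF-like cells were likewise in different clusters, cluster 8 (89.8%) and cluster 2 (94.6%), while EM-like cells were mostly cluster 4 on both days (85.4% and 85.7%). The part of this in the values was not tested. Each time point was 1 sum per platform, so that differences between days and between libraries cannot be told apart.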

How the data were processed

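Single-cell libraries of sorted YFP+ cells and bulk libraries of sorted Pdgfra-/Cd36+ cells were analysed. The 10× table holds UMI counts that the authors made with Cell Ranger and deposited per gene and cell. The Smart-seq2 table holds expected counts that the authors estimated with kallisto 0.44.0 and tximport, and their sums were rounded to whole numbers. The bulk table holds deposited read counts, whose counter is not given in the sources used here. Of 18 bulk columns 16 were not used, because their names fit 2 samples each, so 9 bulk comparisons were not run. The tables hold 3916 cells, fewer than the study states. Cells with over 8% mitochondrial counts or with no YFP count, Smart-seq2 cells with under 4000 genes and 10× cells with over 15000 UMIs were left out, as in the study, and 3852 cells remained. The libraries gave medians of 1607.5 to 5930 UMIs or 393416 to 829590 counts per cell, and the bulk libraries 24862787 and 32947290 counts.

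Cells were clustered in Seurat 5.3.0 (R 4.3.3) after integration of the platforms, with 2000 variable genes, 30 components and resolution 0.8, leaving out 286 cell cycle genes with all members. A cluster took the name, among the classes and early progenitors, whose markers scored highest at a mean z of at least 0.8. At least 3 of these markers had to be detected in over 5% of its cells. Markers of other cells could not name a cluster, even where they scored higher. Tendon did so in cluster 3 (2.62 against 1.64 for LP) and epidermis in cluster 9 (1.54 against 0.98 for EM). Cartilage did so in cluster 1 (2.47 against 0.9 for EP). A name was withheld where the 10 leading genes went against it. That exception was settled after the clusters were seen. It left cluster 1 unnamed, so the planned comparison of late with early progenitors was run against cluster 1. Doublets were kept, and an alternative left out the 8 to 10 cells per library that Scrublet (in scanpy 1.11.5) called.

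Counts were summed per class, platform and day over at least 20 cells. Sums were tested with edgeR 4.0.16 (quasi-likelihood, TMM, filterByExpr with a minimum count of 10, prior count 2) over all genes of both single-cell tables, with the pool as a block where both classes were in a pool and the platform as a covariate otherwise. Adjusted p is Benjamini-Hochberg over all genes tested, with a threshold of 0.05. DESeq2 1.42.0, relative log expression size factors, no filter on low counts, resolutions 0.4 and 1.2, cycle genes kept in the clustering, all deposited cells, doublets left out, each pool left out and 10× alone were the alternatives. For shares of cells, each cell was thinned to 1000 UMIs or 100000 counts, and cells with fewer were left out. Intervals are exact at 95% and cover counting error only, and a count of 0 is taken to allow 3 counts. The scripts (Python 3.11.15) were tested on simulated data.

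The members and all lists were chosen with earlier results of these data known. The text names 15 members where they say something (*Mki67*, *Top2a*, *Cdk1*, *Ccnb1*, *Mcm2*, *Mcm5*, *Pcna*, *E2f1*, *Ccne1*, *Ccnd1*, *Ccnd2*, *Ccnd3*, *Cdkn1a*, *Cdkn1b*, *Cdkn2c*) and, per comparison, the 3 largest increases and 3 largest decreases among members called with the same sign in every pool. Of each pathway list it names at most 3 genes called, by size. Which 8 promoters and which 160 bases of each to print was settled after the matches were seen. Over the sums of the classes, the markers of other cells reached at most 299.5 CPM for Schwann and crest cells (in LM-like cells), 615.1 for cartilage (cluster 1), 320.3 for endothelium (N-like), 64.5 for epidermis (EM-like), 188.2 for erythroid cells (NP-like), 9.31 for immune cells (LM-like) and 330.6 for tendon (LP-like).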

Additional observations from a re-analysis of the deposited data

How the results depend on the processing

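The count of members called stayed within 1.5 times its value for LM-like against EM-like cells and for DF-like against LP-like cells, except on the 10× pools alone (23 and 11 members), where fewer sums entered the fit. Over the pools left out in turn the counts ran from 37 to 45 and from 22 to 28. For LP-like cells against cluster 1 the count of 5 moved to 8 with DESeq2 and to 3 at resolution 1.2. It ran from 1 to 10 over the LP-like pools left out. No count is given without either E12.5 pool, where cluster 1 was 1 sum. For N-like against NP-like cells the count of 6 moved to 11 with DESeq2, to 29 with no filter on low counts, to 2 with cycle genes kept in the clustering and to 1 with all deposited cells, and ran from 6 to 33 over the pools left out. The cause was not tested. *Mcm2* in LM-like against EM-like cells changed sign on the 10× pools alone (0.25). Between days 0 members were called under each alternative run, in edgeR and DESeq2. Members that changed sign in at least 1 alternative numbered 1 of 49 (LM-like against EM-like), 3 of 50 (DF-like against LP-like), 15 of 50 (LP-like against cluster 1), 1 of 47 (N-like against NP-like), and 12, 41, 42 and 34 of 50 in the comparisons of days. After thinning to 500 UMIs, which has 10× pools alone, EM-like shares exceeded LM-like shares in 3 of 3, and the BA-like share (19.7%) fell below the EM-like ones (21.6% to 22.8%). With the other clusterings and cells, 92.5% to 99.6% of the 3436 named cells kept their class.

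Where both classes came from the same pools, the fit had a block for the pool and was thus paired by pool. The labels number replicates in the bulk groups, and for these no paired analysis was possible because the columns of only 1 bulk group, the Pdgfra-/Cd36+ libraries, had names that fit 1 sample each, so no bulk groups were compared. The 9 bulk comparisons, the comparisons of days on 10× alone (no residual degrees of freedom) and LP-like cells against cluster 1 on 10× alone (1 sum of cluster 1) were not run. Depth limits the 10× values of low members such as *Cdkn2c* and those of small classes.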
